A study of Mus musculus with 140 samples.

Results

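The natural killer gene complex of mouse chromosome 6 was examined for silencers, DNA elements that lower transcription. Members were all listed silencer intervals whose midpoint lay between 128.3 and 131.3 Mb of mm10, a 3 Mb window that holds the Klr and Clec receptor genes. There were 222 such intervals among the 204761 of both lists, 83 of the 89596 in mouse embryonic fibroblasts (MEFs) and 139 of the 115165 in mouse embryonic stem cells (mESCs). Merging overlapping intervals left 171 loci, of which 50 were in both lists, 32 in the MEF list only and 89 in the mESC list only.

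The intervals came from Ss-STARR-seq, a reporter screen in which sheared genomic DNA is cloned into a plasmid and the RNA made from each fragment is compared with the plasmid input. The labels describe 20 input plasmid libraries, 64 reporter RNA libraries of MEFs in 4 output sets and 56 of mESCs in 3 output sets, and each cell type has 1 interval list; the titles of the plasmid libraries carry the name hPGK. MEFs were grown in DMEM with serum and mESCs in N2B27 with 2i and LIF, no knockout or treatment separates the groups, and no mouse strain is given. Each list holds 1 linear fold per interval, all above 2, with no counts, so the depth is unknown and no interval has an error of its own. A site outside a list may be inactive, below the fold of 2 or not covered by the plasmid library, whose coverage was not analysed here.

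The complex encodes C-type lectin-like receptors that natural killer cells use to tell healthy from stressed or infected cells. Klra (Ly49) receptors and the CD94 and NKG2 receptors bind MHC class I or related proteins. Klrb1 (NKR-P1) receptors bind Clec2 proteins encoded beside them, and the neighbouring myeloid lectins detect fungi, dying cells or lipoproteins. Many of these genes arose by tandem duplication, so stretches of sequence recur across the window. Neither MEFs nor mESCs are natural killer cells.

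The sequences on which the results turn are printed from GRCm38.p6, 5′ to 3′, with positions counted from 1. In the first set, each stretch carries a member with one of the highest folds or a member with the same boundaries in both lists, and capitals mark the listed bases (for the Klrk1 intron, the bases listed in both cell types). The Cd69 stretch holds a 200 bp interval of both lists and, farther from the gene, a 50 bp interval of the MEF list.
Cd69 upstream, chr6:129275716-129276015, minus strand: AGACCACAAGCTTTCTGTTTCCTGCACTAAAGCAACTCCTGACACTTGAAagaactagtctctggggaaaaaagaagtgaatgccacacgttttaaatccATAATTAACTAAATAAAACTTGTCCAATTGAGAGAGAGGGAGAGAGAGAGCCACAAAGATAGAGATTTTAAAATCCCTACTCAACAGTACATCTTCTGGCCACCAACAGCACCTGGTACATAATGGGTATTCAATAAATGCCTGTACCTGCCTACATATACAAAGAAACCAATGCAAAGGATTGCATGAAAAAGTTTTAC
Clec12a upstream, chr6:129339252-129339451, plus strand: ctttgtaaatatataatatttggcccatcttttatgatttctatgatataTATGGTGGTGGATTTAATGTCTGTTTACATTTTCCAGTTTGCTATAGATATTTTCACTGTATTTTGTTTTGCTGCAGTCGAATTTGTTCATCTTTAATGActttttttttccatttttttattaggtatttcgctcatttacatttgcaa
Klrk1 intron, chr6:129620352-129620651, minus strand: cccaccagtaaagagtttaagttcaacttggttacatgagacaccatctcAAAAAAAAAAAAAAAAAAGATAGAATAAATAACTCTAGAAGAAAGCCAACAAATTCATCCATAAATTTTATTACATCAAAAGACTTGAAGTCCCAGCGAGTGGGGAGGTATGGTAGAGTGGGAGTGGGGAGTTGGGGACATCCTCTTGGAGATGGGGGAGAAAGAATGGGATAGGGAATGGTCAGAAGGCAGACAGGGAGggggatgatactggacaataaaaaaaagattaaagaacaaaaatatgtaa

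The second set shows tandem copies. The Clec2i intron stretch lies inside the MEF member with the highest fold, and capitals in the Clec2g copy mark the 5 bases that differ. The Klra7 stretch is the part of a shared interval directly upstream of the exon with the Klra7 start codon. The annotated gene extends farther upstream. Capitals in the Klra1, Klra6 and Klra3 copies mark bases that differ from Klra7, an inserted base included. None of these 4 copies overlapped an interval of either list.
Clec2i intron, chr6:128891802-128892001, plus strand: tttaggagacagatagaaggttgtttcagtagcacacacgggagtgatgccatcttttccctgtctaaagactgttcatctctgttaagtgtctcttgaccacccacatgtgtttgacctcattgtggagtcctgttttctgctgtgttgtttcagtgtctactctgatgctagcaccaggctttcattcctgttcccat
Clec2g copy, chr6:128978357-128978556, plus strand: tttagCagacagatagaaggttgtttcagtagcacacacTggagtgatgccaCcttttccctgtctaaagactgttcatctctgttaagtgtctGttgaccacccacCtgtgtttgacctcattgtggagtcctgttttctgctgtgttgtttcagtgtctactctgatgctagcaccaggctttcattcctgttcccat
Klra7 upstream, chr6:130231688-130231801, minus strand: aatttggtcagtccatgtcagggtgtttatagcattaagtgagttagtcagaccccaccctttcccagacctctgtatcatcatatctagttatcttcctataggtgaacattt
Klra1 copy, chr6:130380733-130380846, minus strand: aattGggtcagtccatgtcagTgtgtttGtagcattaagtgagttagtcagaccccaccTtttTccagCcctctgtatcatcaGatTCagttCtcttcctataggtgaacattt
Klra6 copy, chr6:130025287-130025401, minus strand: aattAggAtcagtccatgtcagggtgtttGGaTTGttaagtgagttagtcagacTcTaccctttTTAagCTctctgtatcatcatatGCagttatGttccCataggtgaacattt
Klra3 copy, chr6:130335867-130335981, minus strand: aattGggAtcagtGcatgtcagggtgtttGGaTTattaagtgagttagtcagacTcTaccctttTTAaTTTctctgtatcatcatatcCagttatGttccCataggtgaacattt

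**Figure D1:**
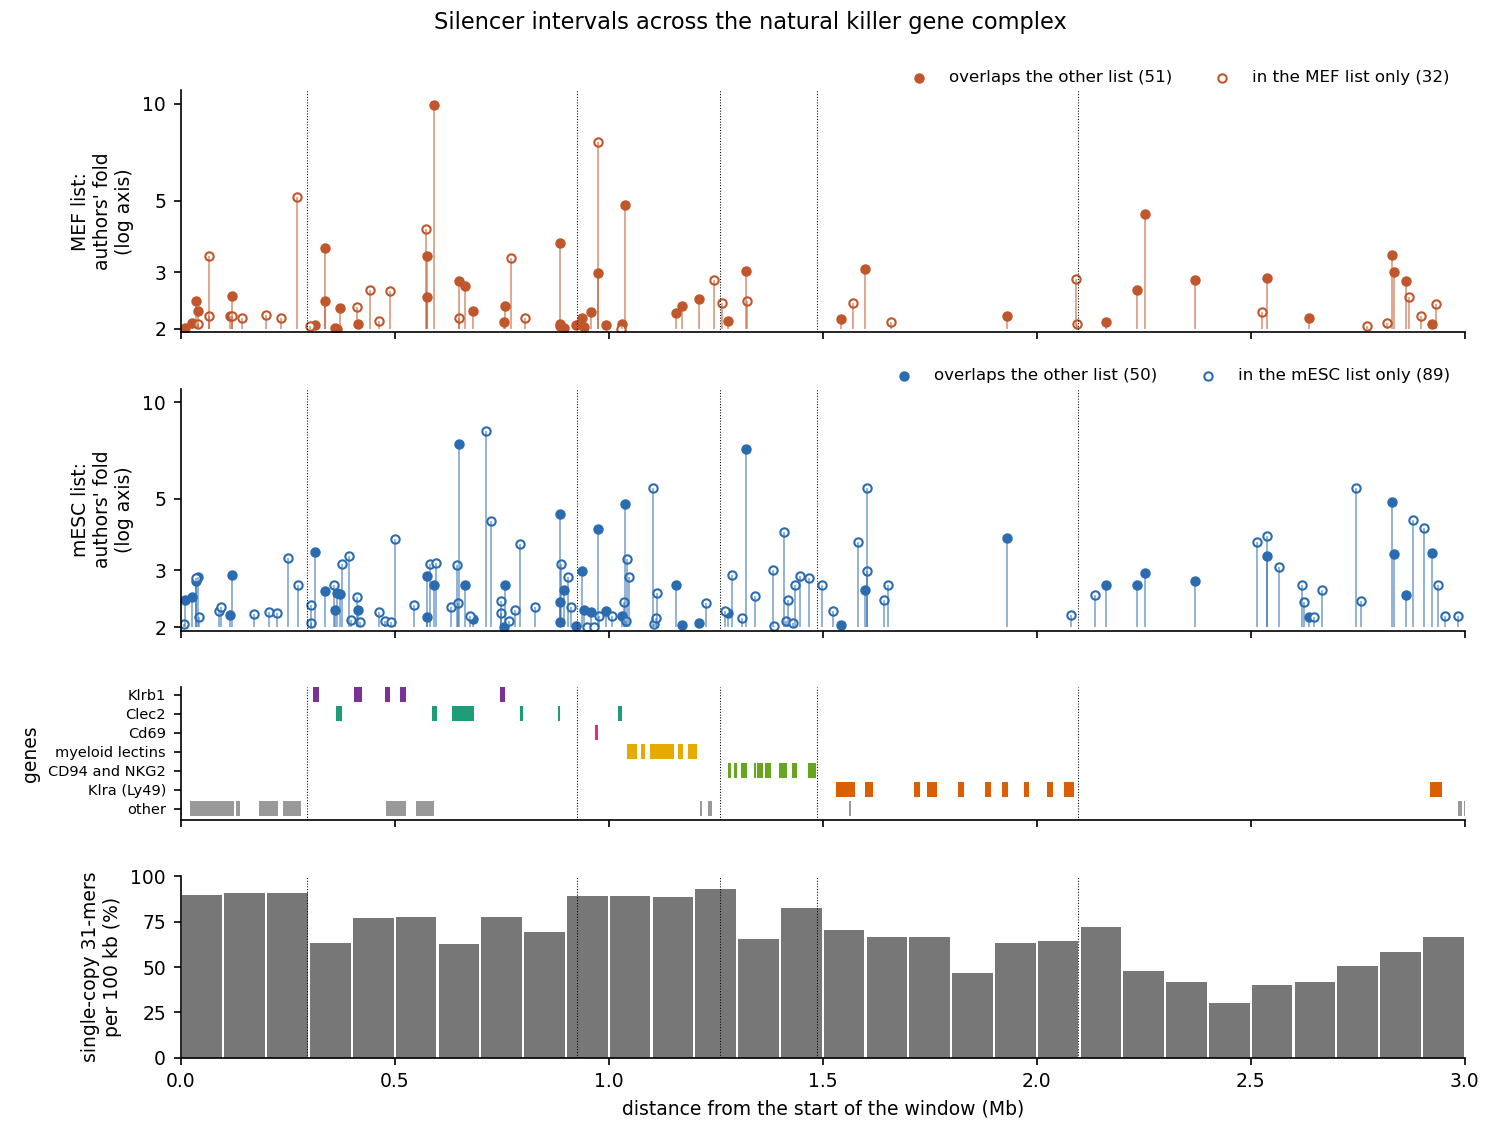
Members along the window: the upper panels plot the authors' fold (log axis) of each MEF and mESC interval against its distance from the window start, filled where it overlaps the other list; below are the genes by group and the share of single-copy 31-mers per 100 kb. Dotted lines bound the 6 blocks. Members are dense in the first Mb (49 MEF and 73 mESC intervals) and sparse across the Klra genes.

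The window as a whole was sparser than the median window in MEF silencers and close to it in mESC silencers. MEF intervals lay at 27.7 per Mb (95% Poisson interval 22 to 34.3, counting error only), against a median of 37.0 over 775 autosomal 3 Mb windows. Of those windows, 88 (11.4%) were sparser. mESC intervals lay at 46.3 per Mb (39.0 to 54.7) against a median of 47.7, and 341 windows (44.0%) were sparser. The 3 Mb before the window held 81 MEF and 101 mESC intervals and the 3 Mb after it 107 and 140. The density was uneven inside the window: its successive Mb held 49, 16 and 18 MEF and 73, 40 and 26 mESC intervals.

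**Figure D2:**
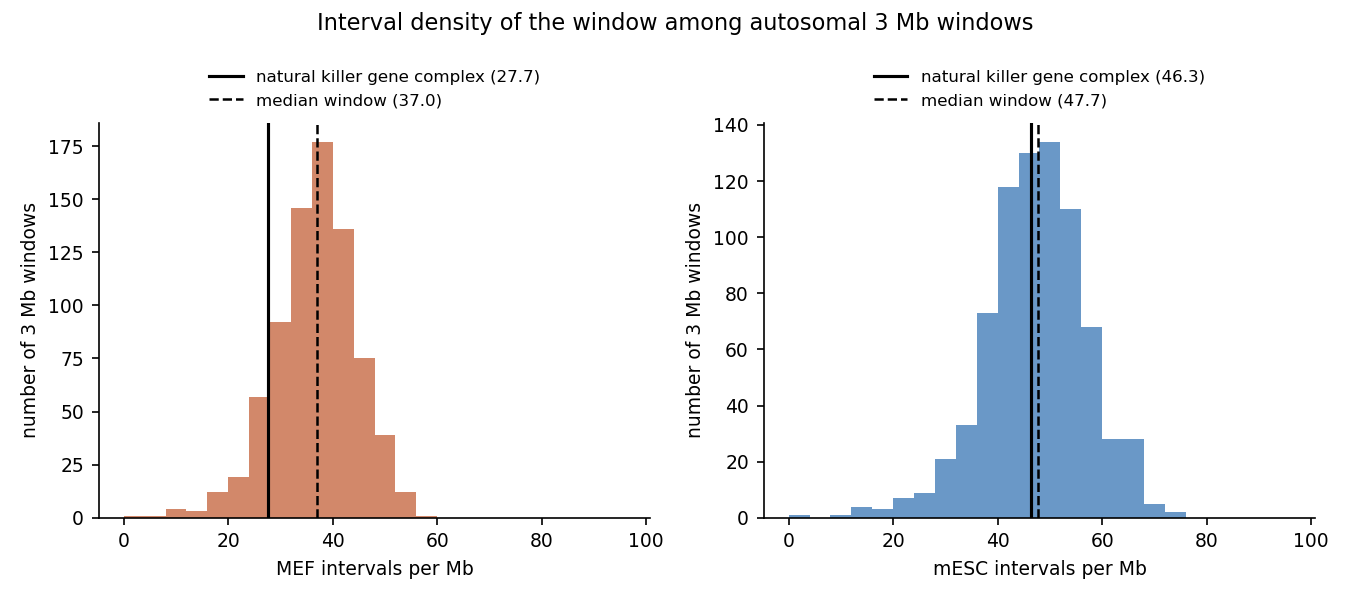
Number of autosomal 3 Mb windows (vertical axis) by MEF (left) or mESC (right) intervals per Mb (horizontal axis). The solid line marks the natural killer gene complex and the dashed line the median window: 27.7 against 37.0 in MEFs and 46.3 against 47.7 in mESCs.

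The counts per 100 kb tended to be higher where more of the sequence was single copy. Single-copy sequence was measured as the share of 31-base words (31-mers) that occur once in the assembled chromosomes, either strand. It was 68.7% in the window against a median of 86.4%, and 35 of 775 windows were lower. Soft-masked repeats made up 42.8% of the bases against 31.9%. Per Mb of single-copy sequence the MEF density was 0.927 times the median window and the mESC density 1.21 times, in place of 0.748 and 0.972 per Mb. Across the 30 bins of 100 kb, the rank correlation with the single-copy share was 0.44 for MEF and 0.50 for mESC counts, and that with GC content 0.70 and 0.62. These are descriptions over neighbouring bins of 1 region. How the authors treated reads that match several places is not given in the sources used here, and the part of read placement in the counts was not tested.

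Both lists were then set against each other. The mESC list supplied 62.6% of the members (95% exact binomial interval 55.9 to 69.0) and 56.2% of all intervals. In a two-sided exact binomial test of the mESC share in each of 849 windows, with Benjamini-Hochberg adjustment, the natural killer window gave p = 0.0582 and an adjusted p of 1. No window passed 0.05 after adjustment (percent called 0), and 14 did before it. Of 83 MEF members, 51 (61.4%, 50.1 to 71.9) overlapped a mESC interval by at least 1 bp, beside 47.3% of the whole MEF list. This gave an exact p of 0.0112 and an adjusted p of 0.307 over 844 windows, of which 0 passed and 72 were below 0.05 unadjusted. The MEF share depended on the rule. With overlap of at least 50% of both intervals it was 43.4% beside 37.8% (exact p = 0.310). Among intervals under 50% soft-masked it was 50.9% beside 44.0% (exact p = 0.334). With midpoints within 1 kb it was 66.3% beside 53.1% (exact p = 0.0204, adjusted p = 0.409). Of 139 mESC members, 50 (36%) overlapped a MEF interval, beside 36.6% of the whole list (exact p = 0.930, adjusted p = 1, 0 of 845 windows called and 59 unadjusted). Among the 121 members in 1 list only, 89 (73.6%) were in the mESC list, beside 60.7% of such intervals in all, with an exact p of 0.00376 that did not hold after adjustment (0.352). The mESC share, the overlapping shares and the share among members in 1 list only rest on the same counts, so they are not separate results. These p-values describe the lists, since intervals are not replicates.

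**Figure D3:**
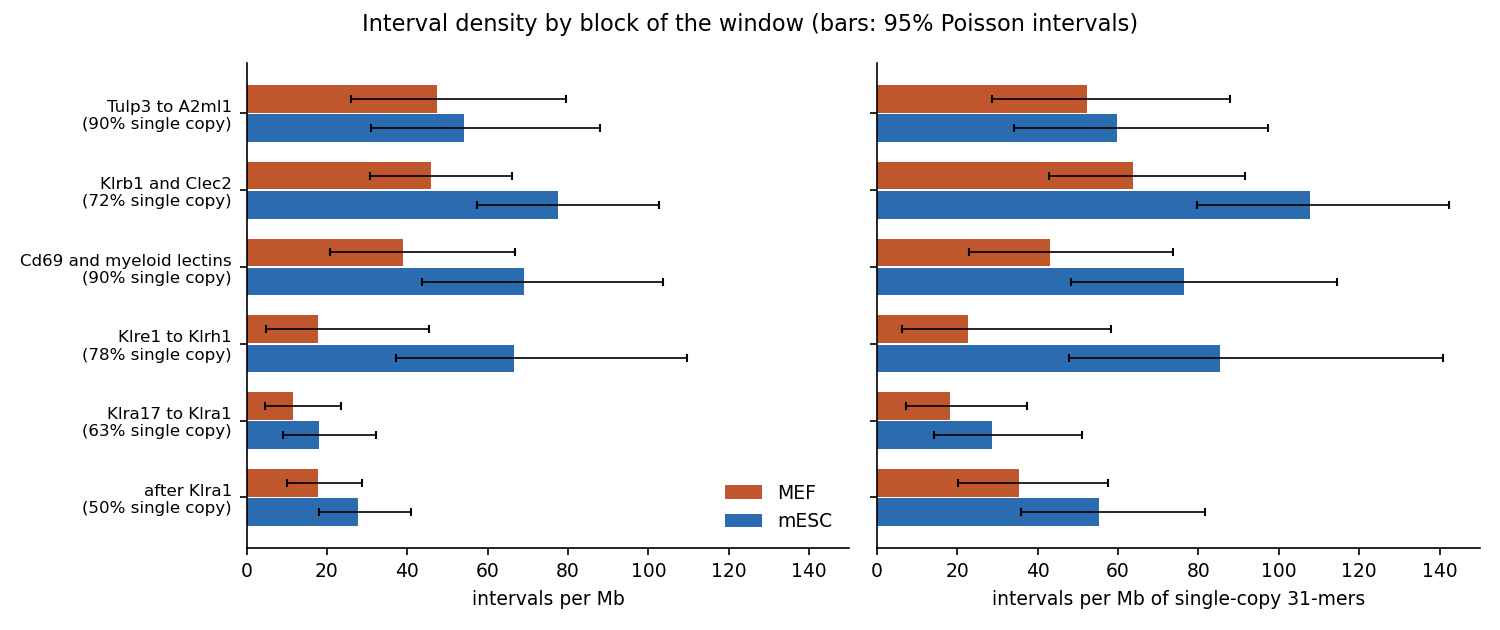
MEF and mESC intervals per Mb (left) and per Mb of single-copy 31-mers (right) in the 6 blocks of the window, with 95% Poisson intervals as error bars. The Klra17 to Klra1 block is lowest on both scales, at 11.5 MEF and 18.0 mESC intervals per Mb, or 18.2 and 28.6 per single-copy Mb.

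The Klrb1 and Clec2 block, where receptors and their ligands lie intermingled, held the most members. It contained 29 MEF and 49 mESC intervals in 0.632 Mb, or 45.9 and 77.6 per Mb, with 72.0% single-copy 31-mers. A gene's territory was taken as its body and 10 kb on each side. Of 5 Klrb1 genes, 4 had intervals in their territories, with 7 MEF and 14 mESC intervals in all. Klrb1f had 2 MEF and 5 mESC intervals, Klrb1 had 2 and 4 and Klrb1a had 2 and 3. Klrb1c, which encodes the NK1.1 antigen, had 1 and 2, all outside the gene body. Klrb1b, the inhibitory receptor for Clec2d, had none in either list, and 89.8% of its 31-mers were single copy. With 25 kb on each side it had 1 MEF and 3 mESC intervals.

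The gene groups hold no annotated pseudogenes except Clec7a, which the annotation calls a polymorphic pseudogene. All 6 Clec2 genes of the group had intervals of both lists, 16 MEF and 25 mESC in their joint territories, or 72.6 and 113 per Mb. Clec2g had the most of any receptor or lectin gene, with 4 MEF and 7 mESC intervals around a 50.3 kb body. An intron of Clec2g held the mESC interval chr6:128951001-128951301, whose fold of 7.41 was the second highest mESC fold of the window. The MEF interval chr6:128951049-128951199 lay inside it with a fold of 2.81. Clec2d, the ligand of Klrb1b, had 4 MEF and 5 mESC intervals around a 5.92 kb gene. At its end, MEF interval chr6:129186451-129186601 had a fold of 3.69 and mESC interval chr6:129186451-129186801, with the same start, a fold of 4.48. Clec2h had 3 MEF and 5 mESC intervals, and Clec2m (4922502D21Rik in the annotation) 3 and 4.

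The highest MEF fold of the window, 9.90, was in this block, at chr6:128891697-128892047, in an intron of Clec2i and 746 bp upstream of the start of BC035044. The mESC interval inside it, chr6:128891801-128892001, had a fold of 2.71. The element was thus at percentile 99.7 of the MEF folds but 67.2 of the mESC folds, with tied folds given their mean rank. The longest mESC members were also in this block, at 600 bp (chr6:128792101-128792701), 575 bp (chr6:128777476-128778051) and 506 bp (chr6:128698645-128699151), with folds of 2.07, 2.08 and 2.11.

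**Figure D4:**
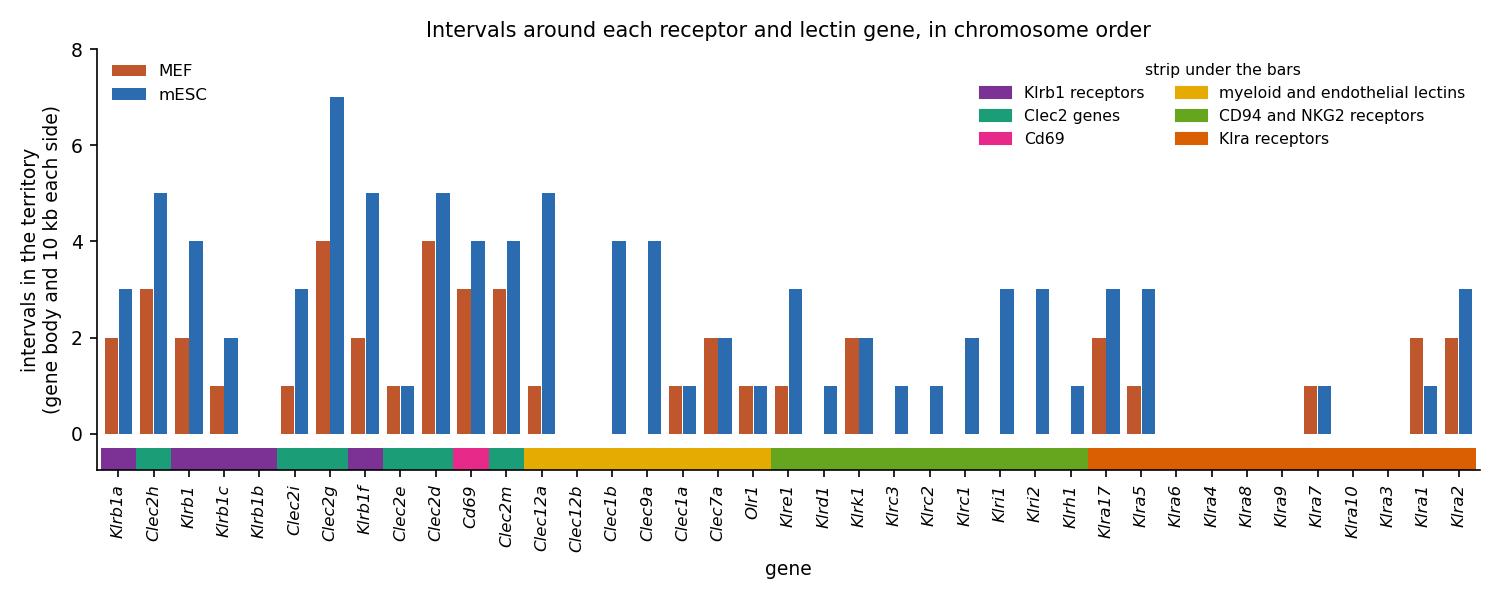
MEF and mESC intervals (vertical axis, count) in the territory of each of the 39 receptor and lectin genes in chromosome order; the coloured strip gives the group. Clec2g is highest at 4 and 7. Clec9a, Clec1b and all genes of the CD94 and NKG2 group except Klre1 and Klrk1 have mESC intervals only. Another 6 Klra genes, Klrb1b and Clec12b have none.

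Cd69, an early activation antigen of lymphocytes, had 3 MEF and 4 mESC intervals, none inside the gene. Interval chr6:129275715-129275915 had the same boundaries in both lists, with folds of 2.98 in MEFs and 4.02 in mESCs, and was centred 379 bp upstream of the start site. The MEF interval chr6:129275965-129276015, with a fold of 7.62, was centred 554 bp upstream and overlapped no mESC interval. Both are in the printed Cd69 stretch, in which all 31-mers of the intervals were single copy.

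The myeloid and endothelial lectins that follow had 4 MEF and 12 mESC intervals around 7 genes. Clec9a, a dendritic cell receptor for dead cells, and Clec1b, the platelet receptor CLEC-2, shared the same 4 mESC intervals in their overlapping territories and had 0 MEF intervals. One of these, chr6:129404301-129404401 in a Clec1b intron, had a mESC fold of 5.42. Clec12a, an inhibitory myeloid receptor, had 1 MEF and 5 mESC intervals. The interval chr6:129339301-129339401, 3.3 kb upstream of it, had the same boundaries in both lists. Its folds were 4.84 in MEFs and 4.82 in mESCs, at percentiles 97 and 95.7 of the folds of each list. Clec7a (Dectin-1), the receptor for fungal beta-glucan, had 2 and 2, including the interval chr6:129470651-129470951 in an intron, again with the same boundaries and folds of 2.36 and 2.02. Olr1 (LOX-1), a receptor for oxidised LDL, had 1 and 1, and Clec12b had 0 in both lists. The fourth interval with the same boundaries, chr6:129057501-129057601, lay 0.1 kb past Klrb1f, with folds of 2.35 and 2.71.

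The group of CD94, NKG2 and related genes (labelled CD94 and NKG2 in the figures) had intervals mainly in the mESC list. It holds Klrd1, Klrk1 and Klrc1 to Klrc3 and the related Klre1, Klri1, Klri2 and Klrh1. All 9 genes had a mESC interval in their territory, 15 in all, while 2 of 9 had a MEF interval, 3 in all. The mESC share there was 83.3% (95% exact interval 58.6 to 96.4, counting error only), beside 56.2% of all intervals and 55.2% to 75% in the other gene groups. This share is for the 9 genes together and was not computed for the CD94 and NKG2 genes alone. Klrk1 (NKG2D), the activating receptor for stress ligands, had 2 MEF and 2 mESC intervals. In its intron, mESC interval chr6:129620351-129620701 had a fold of 7.16 and MEF interval chr6:129620401-129620601, wholly inside it, a fold of 3.03. A MEF interval with a fold of 2.44, chr6:129623951-129624101, lay 162 bp upstream of the Klrk1 start. Klre1 had 1 and 3. Klri1 and Klri2, partners of Klre1, had 0 MEF and 3 mESC intervals each, Klrc1 (NKG2A) 0 and 2, and Klrd1 (CD94), which pairs with the NKG2 chains, 0 and 1. A 50 bp mESC interval with a fold of 2.49, chr6:129641451-129641501, was the single member centred in a coding exon, that of Klrc3. No gene of this group reached the 10 intervals that the test per gene needed, so the difference between the lists was not tested gene by gene.

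The Klra (Ly49) cluster was the sparsest stretch. The block from Klra17 to Klra1 held 7 MEF and 11 mESC intervals in 0.611 Mb. No interval of either list was centred between 129.9589 and 130.2317 Mb, a gap of 273 kb in MEFs (278 kb in mESCs) that spans Klra6, Klra4, Klra8 and Klra9. Of 87787 gaps between neighbouring MEF intervals on autosomes, 101 were at least as long, and of 112855 mESC gaps 71 were. About 60.0% of the 31-mers in the gap were single copy. Of 11 Klra genes, 5 had intervals and Klra6, Klra4, Klra8, Klra9, Klra10 and Klra3 had 0 in both lists. The genes without intervals ranged from 34.4% (Klra9) to 81.2% (Klra6) single-copy 31-mers and those with intervals from 60.2% (Klra2) to 84.4% (Klra5). Of the 6 genes without intervals, 4 were below every Klra gene with intervals, and Klra6 and Klra4 were not. The part of this in the counts was not tested.

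Klra17 had 2 MEF and 3 mESC intervals, Klra5 had 1 and 3, and Klra2, apart from the cluster near the end of the window, had 2 and 3. The highest mESC fold among them, 5.42, was in an intron of Klra5 at chr6:129902943-129903043. Klra1 (Ly49A), an inhibitory MHC class I receptor, had 2 MEF intervals beside the gene and 1 mESC interval in an intron. Klra7 (Ly49G) had 1 and 1, at annotated start sites: mESC interval chr6:130231501-130231801 (fold 3.79) and MEF interval chr6:130231569-130231819 (fold 2.19). These start sites lie inside the annotated gene, whose upstream end is at 130233322. Both cover the exon with the start codon, whose annotated forms span 130231506 to 130231687, in whole or in part. Klra4 (Ly49D) and Klra8 (Ly49H), activating receptors, and Klra9 (Ly49I) and Klra3 (Ly49C), inhibitory ones, had none.

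Beyond Klra1 lies a stretch with few named genes, where 50.1% of the 31-mers were single copy. It held 16 MEF and 25 mESC intervals, 17.7 and 27.7 per Mb, or 35.4 and 55.3 per single-copy Mb. The MEF interval chr6:130552462-130552862 had a fold of 4.54 and its mESC counterpart chr6:130552445-130552844 one of 2.94, and both were wholly soft-masked. The mESC interval chr6:131045667-131045867 had a fold of 5.42. The longest MEF member, 474 bp at chr6:131162227-131162701, was also here, and the next longest, both 450 bp, lay before Cd69 at chr6:129242201-129242651 and chr6:129259651-129260101.

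The other 18 protein-coding genes, mostly at the start of the window, had 26 MEF and 32 mESC intervals, a few of them past the edges of the window. Tulp3 had the most, with 5 and 6, followed by BC035044 with 4 and 6 and Styk1, which runs past the window, with 3 and 4. Foxm1, a cell cycle transcription factor, had 2 MEF intervals and 0 mESC intervals. The MEF interval chr6:128572201-128572301 in an intron of A2ml1 had a fold of 5.14. Only Tulp3, BC035044 and Clec2g had the 10 intervals needed for the test of the mESC share per gene. None passed, with an adjusted p of 1 in the exact binomial test over 3543 genes, of which 0 (0%) passed and 27 were below 0.05 unadjusted.

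Duplicated sequence allowed the same element to be followed across gene copies, defined as at least 80% identity over at least 100 bp. Of the 67 MEF members of 100 bp or more, 19 had another copy in the window, and of 112 such mESC members 33 had one. Shorter members, 16 and 27, could not meet this definition. Soft-masked bases were left out where alignments begin, and none of the wholly soft-masked members, 9 MEF and 17 mESC, had a counted copy. A member without a counted copy may therefore still hold sequence that recurs. The 19 MEF members had 74 copies, of which 0 overlapped a listed interval of either list at another locus, and the 33 mESC members had 132, of which 2 (1.52%) did. Of all stretches of the same lengths in the window, 2.51% and 2.40% overlapped a listed interval, so the copies' shares are near this background and show nothing particular to the copies. Overlapping members of both lists count the same copies. Among copies with at least 50% single-copy 31-mers, 0 of 48 and 0 of 70 were listed, beside 2.81% and 2.77% of such stretches, and these numbers are too small to tell the shares apart. The listed copies were that of mESC interval chr6:128613651-128614101 in a Klrb1a intron, 84.7% identical to sequence around the listed chr6:131204550-131204700, and that of chr6:130838527-130838676, 80% identical to a stretch of 114 bp that shares 33 bp with the neighbouring listed chr6:130838277-130838427. The latter member had the most copies, 38 of the 132, at up to 98.6% identity. Several of these lay next to each other, and 1 was 737 bp long for a member of 149 bp. The number therefore counts matching stretches and not 38 separate gene copies. The listed stretch lay beside the member itself, and both were in exon sequence of Gm21940.

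The Klra7 start was one such case. Its mESC interval had 7 copies of over 200 bp, in Klra1, Klra3, Klra5, Klra6, Klra9, Klra10 and Klra17, at 81.0% to 89.0% identity. Of the 31-mers of the Klra7 interval 99.6% were single copy, beside 99.7% of those in the Klra1 copy and 42.3% or more in the others. No copy was listed in either cell type. Over the printed upstream stretch, 104 of 114 positions of the Klra1 copy matched Klra7, with 10 substitutions. The Klra6 and Klra3 copies each matched at 97 of 115 alignment columns, with 17 substitutions and 1 inserted base. A second Klra5 intron interval of the mESC list, chr6:129903093-129903443 with a fold of 2.99, had 7 copies in Klra genes and pseudogenes at up to 92.7% identity, of which 0 were listed. Likewise, the element with the top MEF fold in Clec2i had a copy in Clec2g that matched at 195 of 200 positions in the printed stretch and was not listed. Here 55.3% of the 31-mers of the mESC interval and 47.0% of those in the copy were single copy. A copy outside the lists shows only that it is not among the folds above 2.

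The authors' folds of the members were close to those of the lists. The median was 2.27 in MEFs (whole list 2.36, maximum among members 9.90) and 2.51 in mESCs (whole list 2.42, maximum 8.13), and 6 MEF members (7.23%, list 5.92%) and 13 mESC members (9.35%, list 7.99%) exceeded 4. Because the scaling of the folds is not known, values were ranked only within a list. Over the 51 overlapping MEF members, the rank correlation with the mESC fold was 0.52, beside 0.50 over all 42378 such intervals, and 9 (17.6%) were above the 75th percentile of both lists, beside 18.1% of all such intervals. The folds are coarse: the value 2.71 recurred in 13 of 139 mESC members (9.35%) and in 3.55% of the mESC list, and 5.42 in 3 members, so intervals with these values have no order among themselves.

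**Figure D5:**
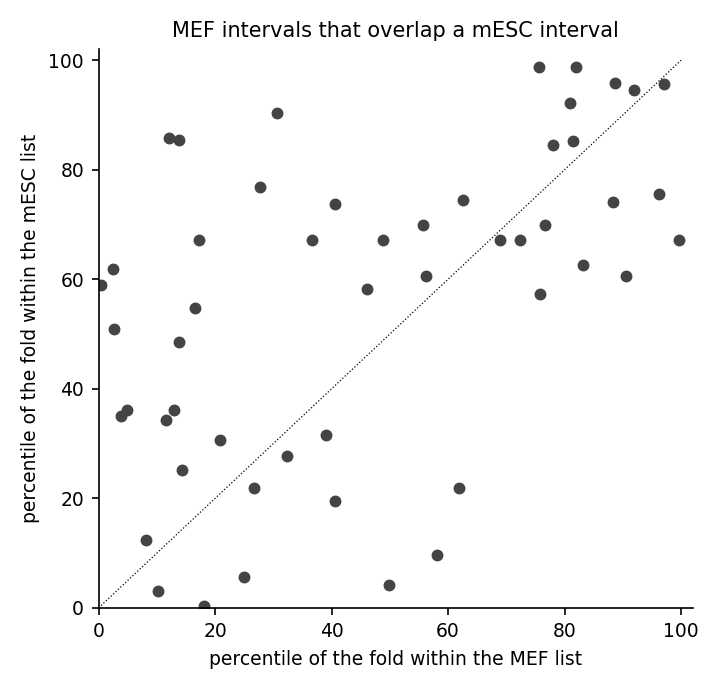
Each point is 1 of the 51 MEF members that overlap a mESC interval, by the percentile of its fold within the MEF list (horizontal) and of the highest overlapping fold within the mESC list (vertical); the dotted line marks equal percentiles. The ranks move together loosely (rank correlation 0.52), with 9 points above the 75th percentile of both lists.

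By position, 8 MEF members (9.64%) and 12 mESC members (8.63%) were centred in a promoter, within 1 kb of a start site, beside 3.40% and 3.51% of the whole lists. Promoters take up 10.1% of the bases of the window and 4.37% of the genome, so the members' shares lay close to that of the window. Promoters of the 39 grouped receptor and lectin genes held 5 of the MEF members, at Cd69, Klrk1, Klra7 and Clec2m, and 4 of the mESC members, at Cd69, Klra7, Klre1 and Klri1. The Klre1 interval (chr6:129578601-129579001, fold 2.21) and the Clec2m interval (chr6:129330701-129331051, fold 2.08) lay 896 and 920 bp downstream of a start site, and the Klri1 interval (chr6:129717901-129718251, fold 2.43) lay 944 bp upstream.

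Members centred in 3′ untranslated exons were 3 in MEFs (3.61%, list 1.24%) and 7 in mESCs (5.04%, list 1.19%), beside 1.76% of the bases of the window and 1.15% of the genome. All 10 belonged to receptor or lectin genes, but the share of such bases of the window that lies in these genes was not computed. In MEFs these were Clec2d, with 2, and Klra5. In mESCs they were Clec2d, Clec2h, Clec2i, Klrk1, Klri2, Klrh1 and Klra5. The Klra5 element was in both lists, as chr6:129898951-129899101 in MEFs (fold 3.08) and chr6:129898953-129899101 in mESCs (fold 2.61). The rest had folds of 2.07 and 3.69 in MEFs (both Clec2d) and, in mESCs, of 3.14 (Clec2h), 3.16 (Clec2i), 2.40 (Clec2d), 2.14 (Klrk1), 2.06 (Klri2) and 2.84 (Klrh1). The Clec2d intervals with folds of 2.07 in MEFs and 2.40 in mESCs overlap, so the 10 members are fewer loci. The counts are small and carry no test.

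In base composition the members resembled their lists, with a median GC content of 40% in MEFs and 39.7% in mESCs (40% in both lists). Soft-masked bases made up 42.4% and 45.9% of the members (lists 38.7% and 41.5%). Per interval, the median soft-masked share was 25.7% and 38% (lists 29.7% and 33%), so the direction in MEFs depends on the measure. Fewer members consisted wholly of single-copy 31-mers, 48.2% in MEFs and 41.0% in mESCs, than in the lists (59.8% and 56.8%).

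Short motifs of factors known in lymphocytes and other cells were counted in 300 bp windows centred on the members, on both strands. The RUNX letters TGTGGT were in 19.3% of MEF and 21.6% of mESC members, beside 23.6% and 24.5% of the lists and 18.3% of the 10000 consecutive 300 bp tiles of the window. The STAT letters TTCNNNGAA were in 15.7% and 11.5%, beside 9.67% and 9.10% of the lists and 13.4% of the tiles. ETS (CGGAAG) was in 4.82% and 1.44%, beside 2.86% and 3.43% of the lists and 2.27% of the tiles. The T-box letters AGGTGT were in 15.7% and 15.8%, beside 14.7% and 14.8% of the lists and 13.3% of the tiles. E-box (CACGTG) was in 6.02% and 2.88%, beside 2.83% and 2.5% of the lists and 1.93% of the tiles. The letters of AP-1, TGANTCA, were in 8.43% of MEF and 9.35% of mESC members, beside 9.24% and 8.17% of the lists and 9.32% of the tiles. Those of GATA factors, AGATAA, were in 20.5% and 18.7%, beside 19.6% and 19.9% of the lists and 21.5% of the tiles. For TEAD, a family with a member gene at the edge of the window, GGAATG was in 18.1% and 14.4%, beside 16.2% and 16.5% of the lists and 17.2% of the tiles. For KLF and SP factors, GGGCGG was in 3.61% and 3.60%, beside 2.57% and 2.85% of the lists and 1.93% of the tiles. The dinucleotide CG was in 78.3% and 77.0%, above the 74.8% of the tiles and below the 82.1% and 81.7% of the lists. The exact 95% interval of the members' share held the share of the tiles for all 10 motifs in both lists, except for E-box in MEFs, whose interval of 1.98% to 13.5% rested on 5 members. Of the printed sequences, the Cd69 stretch held a RUNX match, the Klrk1 intron and both Clec2 stretches a TEAD match, and the Klra7 stretch a GATA match that was not in its printed copies. A match is a description of the letters and not of binding.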

How the data were processed

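Per the labels, fragments of the mouse genome were screened by Ss-STARR-seq in MEFs and mESCs against the input plasmid library. The authors deposited 1 interval list per cell type with a linear fold (ratio) per interval, all above 2. Bowtie2 and SAMtools are named in the submitters' processing notes. The notes name hg38 and the design text mm10, and the intervals were read as mm10. The caller, which libraries each ratio divides, its scaling and how libraries were combined are not given here, and the depth is unknown. Coordinates are printed as listed, and a start may be off by 1 bp.

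Members and gene lists were chosen with earlier results of these data known. Python 3.11.15, numpy 2.4.6, pandas 2.3.3, scipy 1.17.1 and blastn 2.17.0 were used with GRCm38.p6 (C57BL/6J) and GENCODE M21 basic genes. An interval belongs where its midpoint lies. Windows and genes with at least 10 intervals were tested by two-sided exact binomial tests against the share over the whole lists, with Benjamini-Hochberg adjustment at 0.05, after the test was run on simulated data. Named genes were the 3 with most intervals in each group and a list of well-known genes. Named intervals were the 5 highest folds and 3 longest of each list, those with the same boundaries in both lists, those in promoters or exons of grouped genes, and those with the most or closest copies. Others were chosen after their values were seen. The locus of 1 of these intervals is not reported here. Gm156 and 4922502D21Rik were renamed Klrh1 and Clec2m through RefSeq synonyms. Alternatives covered overlap rule, territory size, masking, scale and copy threshold. Sequences are from GRCm38.p6.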

Additional observations from a re-analysis of the deposited data

How the results depend on the processing

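No paired analysis was possible because the lists hold no values per library, and for the same reason no replicate could be left out. Of the alternatives for the main results, 27 were classed as unchanged, 8 as moved and 1 as reversed. For shares, unchanged means only the same direction from the share over the lists and the same side of the adjusted threshold. The window passed that threshold in no setting, so this class does not show that a share stayed close. The mESC share was 73.6% among intervals in 1 list only, in place of 62.6%, and was classed as unchanged. Among intervals under 50% soft-masked, the overlapping share of mESC members was 35.8%, level with that list's 35.8%, in place of 36% beside 36.6%. The density relative to the median window moved from 0.748 to 0.927 in MEFs and from 0.972 to 1.21 in mESCs per Mb of single-copy 31-mers, and the cause was not tested. In 1 Mb bins, which divide the window, it was 1.32, 0.432 and 0.486 in MEFs, and 1.55 in the first and 0.553 in the third bin in mESCs. With copies at 90% identity over 150 bp, 0 mESC members had a listed copy, in place of 2. Of the alternatives for gene group counts and motif shares, 31 stayed close and 17 moved, as territories or windows grew or shrank. Without counts or replicates, no interval's fold has an error, and small counts per gene are limited by counting error.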
